A study of Glycine max with 3 samples.

Results

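Chalcone synthase joins a coumaroyl-CoA starter to malonyl-CoA units to form naringenin chalcone, and it is the entry enzyme of flavonoid synthesis. In legumes its product feeds isoflavonoids, flavonols, anthocyanins and the proanthocyanidins of the seed coat. Soybean carries a family of these genes, several of them clustered on chromosome 8, where an inverted repeat at the I locus is known as the source of small RNAs that silence the family in seed coats without pigment. The 9 gene models examined here were taken from a fixed list of identifiers for the family, out of 66210 gene models in the tables. They comprise Glyma01g43880 (CHS7) on chromosome 1, Glyma05g28610 on chromosome 5, Glyma08g11520, Glyma08g11530, Glyma08g11610, Glyma08g11620 and Glyma08g11630 on chromosome 8, Glyma09g08780 on chromosome 9 and Glyma11g01350 (CHS8) on chromosome 11. The tables pair no identifier with a product, so the family label and the names CHS7 and CHS8 come from that list and could not be checked against the deposited data. Chromosome numbers were read from the identifiers.

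The study profiled laser-captured seed compartments of soybean (Glycine max, cultivar Asgrow A3237) by RNA sequencing, with 1 library for each compartment. The seed coat parenchyma, a maternal cell layer of the coat, was cut from 8 µm sections of seeds 6.0 to 7.0 mm long at early maturation. The suspensor, the short-lived stalk that anchors the embryo, and the embryo proper, which becomes the seedling, were both cut from 6 µm sections of globular-stage embryos out of pods 0.5 to 1.2 cm long. Seed coat and embryo libraries also differed in microdissection instrument, and stage, section thickness and instrument cannot be told apart from tissue in a comparison with the seed coat parenchyma. The libraries held 11894273 assigned reads for the seed coat parenchyma, 8365831 for the suspensor and 11603055 for the embryo proper. Levels are given in CPM, that is reads in every 1000000 of a library after its total was scaled with edgeR TMM factors. Intervals are 95% counting intervals, and they cover neither amplification nor differences between plants. With no replicate, no p-value is given. Since the identifiers carry no names, the tissue labels could not be checked against marker genes either.

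Reads assigned to the listed chalcone synthase gene models were few in all 3 libraries. The 9 gene models together had 299 reads in the seed coat parenchyma, 7 in the suspensor and 54 in the embryo proper. As levels these sums stood at 20.8 CPM for the seed coat parenchyma (exact Poisson interval 18.5 to 23.3), 1.01 CPM for the suspensor (0.404 to 2.07) and 4.68 CPM for the embryo proper (3.52 to 6.11). The family sum was thus highest in the seed coat parenchyma and lowest in the suspensor, and no pair of these intervals overlapped. In captured tissue, fewer cells of a type and less RNA for each cell cannot be told apart.

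CHS7 and CHS8 had no reads. Glyma01g43880 (CHS7) had 0 reads in the seed coat parenchyma, 0 in the suspensor and 0 in the embryo proper, and Glyma11g01350 (CHS8) was likewise at 0 in each library. The same held for Glyma09g08780 on chromosome 9 and for Glyma08g11520 and Glyma08g11530 on chromosome 8. In all, 5 of the 9 members (55.6%) had 0 reads in every library, against 41.1% of all 66210 gene models, so the share of members without reads lay near that of the tables as a whole. For a count of 0 the exact Poisson interval reached 0.256 CPM (seed coat parenchyma), 0.530 CPM (suspensor) and 0.320 CPM (embryo proper). The 3 reads set for an empty library in ratios stand for 0.209, 0.431 and 0.260 CPM, in the same order. Chalcone synthase genes are close copies of one another, and the handling of reads that align equally well to several of them is not stated in the notes used here. A member at 0 was therefore without assigned reads, and whether its own transcript was present cannot be told from these counts. Likewise the 4 members with reads may hold more or fewer than their own.

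**Figure D1:**
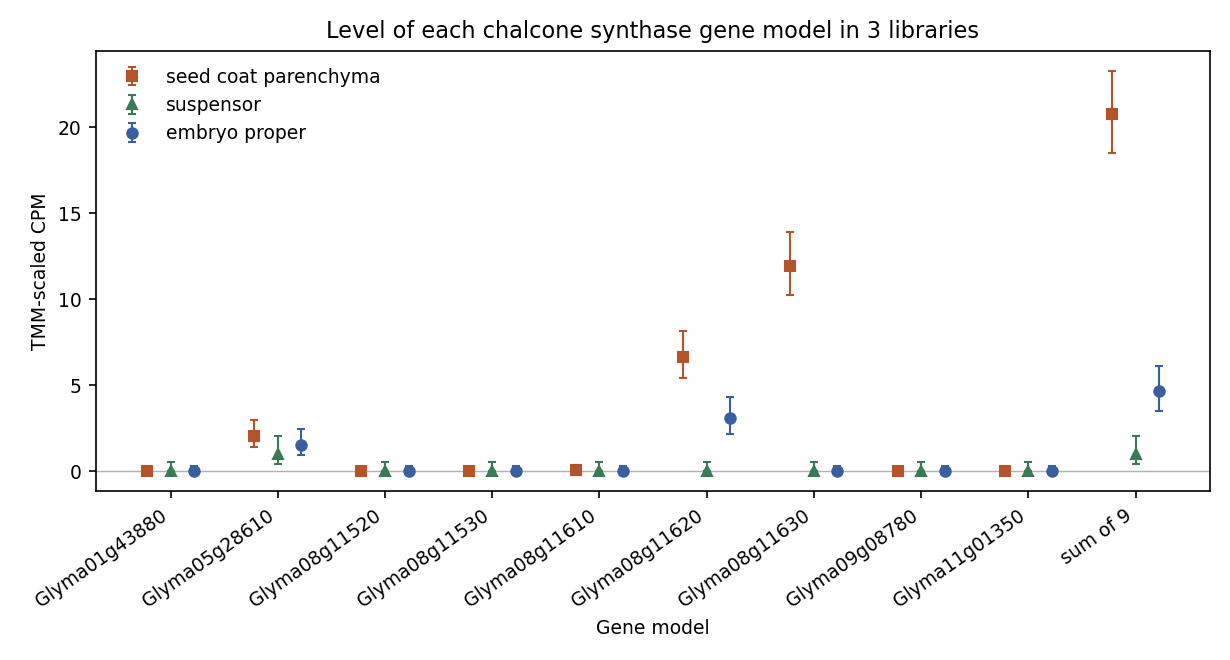
TMM-scaled CPM (vertical axis) of the 9 chalcone synthase gene models and of their sum (horizontal axis) in the seed coat parenchyma, suspensor and embryo proper libraries, 1 library each; bars are exact Poisson 95% intervals. The seed coat parenchyma stands above both embryo regions for Glyma08g11620, Glyma08g11630 and the sum, and 5 gene models lie at 0 in all 3 libraries.

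Glyma08g11630, the last member of the chromosome 8 group in identifier order, was found in the seed coat parenchyma and in neither embryo region. It had 172 reads there, 0 in the suspensor and 0 in the embryo proper. Its level was 12.0 CPM (interval 10.2 to 13.9) in the seed coat parenchyma. With 3 reads set for the empty libraries, its seed coat level was 27.7-fold that of the suspensor and 46.0-fold that of the embryo proper. The lower ends of the counting intervals were 22.3-fold and 37.0-fold, in the same order. At the seed coat level, 83.2 reads would have been expected in the suspensor and 138 in the embryo proper, on counting alone. It was the single member with 100 or more reads in the seed coat parenchyma. Among all 16639 gene models with that many reads there, 834 (5.01%) had 0 reads in both embryo regions.

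Glyma08g11620, its neighbour, was found in the seed coat parenchyma and the embryo proper but not in the suspensor. It had 96 reads in the seed coat parenchyma, 0 in the suspensor and 36 in the embryo proper, which stood for 6.67 CPM (5.40 to 8.15), 0 and 3.12 CPM (2.19 to 4.32). The seed coat level was 2.14 times that of the embryo proper (counting interval 1.44 to 3.23). With 3 reads set for the suspensor, its seed coat level was 15.5-fold that of the suspensor, with the counting interval starting at 12.3-fold. At the same setting the suspensor was 7.24-fold lower than the embryo proper, with the counting interval starting at 5.59-fold. At the embryo proper level, 21.7 reads would have been expected in the suspensor.

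These adjacent members divided their reads differently between compartments, a comparison that no scaling of the libraries can change. Of the reads of both, Glyma08g11630 took 172 of 268 in the seed coat parenchyma, or 64.2% (exact Clopper-Pearson interval 58.1 to 69.9%). In the embryo proper it took 0 of 36, which allows a share of up to 9.74% at the end of the interval. The suspensor had no read of either. How reads that align to both were assigned is not stated, and it could change these shares. Gene lengths are not in the tables, so these are shares of reads and not of transcripts. The third member of this run, Glyma08g11610, had 1 read in the seed coat parenchyma and 0 in the suspensor and the embryo proper, too few for a ratio.

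Glyma05g28610 on chromosome 5 was the single member with reads in every library, and its level was low throughout. It had 30 reads in the seed coat parenchyma, 7 in the suspensor and 18 in the embryo proper. The levels were 2.09 CPM (1.41 to 2.98), 1.01 CPM (0.404 to 2.07) and 1.56 CPM (0.925 to 2.47), in the same order. These levels were not separated at this depth, since the counting interval of every ratio included 1. The seed coat parenchyma to embryo proper ratio was 1.34 (0.721 to 2.55), the seed coat parenchyma to suspensor ratio 2.07 (0.892 to 5.59) and the suspensor to embryo proper ratio 0.645 (0.228 to 1.62). All 7 family reads of the suspensor belonged to this gene model. It took 10.0% of the family reads in the seed coat parenchyma (6.87 to 14.0%) and 33.3% in the embryo proper (21.1 to 47.5%).

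Between compartments, the family sum in the seed coat parenchyma was 20.7 times that in the suspensor (counting interval 9.90 to 51.8) and 4.44 times that in the embryo proper (3.31 to 6.05). The suspensor sum was 0.215 times that of the embryo proper (0.0825 to 0.474). Glyma08g11630 held 57.5% of the family reads in the seed coat parenchyma. Without it the seed coat parenchyma sum was 8.77 times the suspensor sum (4.14 to 22.3) and 1.89 times the embryo proper sum (1.36 to 2.64). The 5 chromosome 8 members alone had 269 reads in the seed coat parenchyma, 0 in the suspensor and 36 in the embryo proper, so that all family reads of the suspensor fell outside chromosome 8. How assigned reads were divided among the 9 does not alter their sum. Reads exchanged with gene models outside the list would alter it. So would reads left out because they align to several copies, and whether any were left out is not stated.

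**Figure D2:**
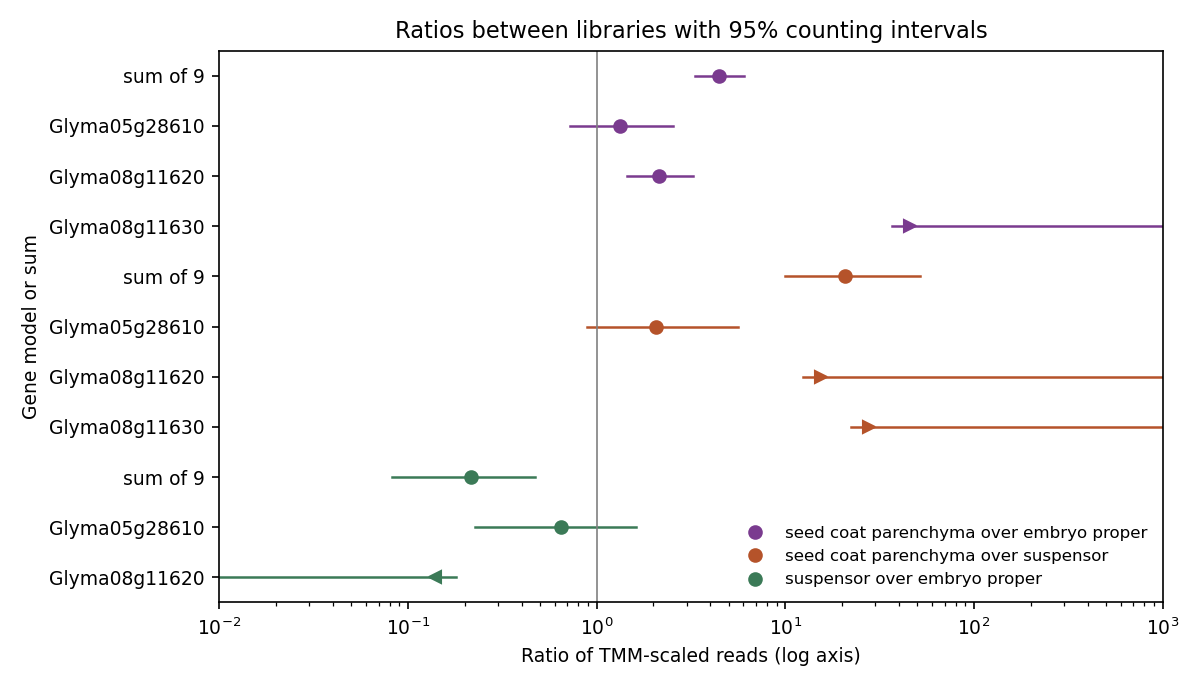
Ratios of TMM-scaled reads between libraries (horizontal log axis) for the sum of the 9 members and for the members with enough reads (vertical axis). Colours mark the comparison. Lines are 95% counting intervals, and arrowheads mark values taken with 3 reads set for an empty library. The intervals of Glyma05g28610 cross 1 in all 3 comparisons, and those of the sum do not.

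At the levels found, the members lay below the range in which gene models were compared for size. None of the 9 reached a mean of 5 CPM over the 3 libraries, the highest mean being 3.98 CPM for Glyma08g11630, while 19940 gene models did. Among those 19940, a difference of at least 4-fold on the log2(CPM + 1) scale put the seed coat parenchyma above the embryo proper for 15.0%, the seed coat parenchyma above the suspensor for 18.7%, and the suspensor below the embryo proper for 15.2%. With no minimum, 4 members and 39013 gene models were kept, each with at least 1 read in any of the 3 libraries. Of these members, Glyma05g28610 (at most 2.09 CPM) and Glyma08g11610 (1 read) were too low to pass 4-fold in any comparison. Glyma08g11630 was then past 4-fold against the embryo proper, 1 of 4 members beside 12.7% of all. Against the suspensor Glyma08g11620 and Glyma08g11630 were past it, 2 of 4 members beside 16.3% of all. In the suspensor Glyma08g11620 was 4-fold lower than in the embryo proper, 1 of 4 members beside 11.5% of all. Glyma08g11610 and Glyma08g11630 had 0 reads in both of these libraries, so they could not differ there. In the opposite directions 0 of 4 members were past 4-fold, beside 9.16%, 9.94% and 9.47% of all gene models, in the order of these comparisons. No member exceeded 1.01 CPM in the suspensor, too low to be 4-fold higher there once 1 CPM is added. For the 2 comparisons with the suspensor that 0 was thus fixed by the levels and is no result. The median difference of the 4 members, on the log2(CPM + 1) scale, was 0.58 for seed coat parenchyma over embryo proper, 1.78 for seed coat parenchyma over suspensor and -0.18 for suspensor over embryo proper, beside 0.10, 0.19 and 0.00 for all. In the last of these medians Glyma08g11610 and Glyma08g11630 enter at 0, being empty in both libraries. The 0.10 for all is the value of a gene model with 1 read in the seed coat parenchyma and 0 in the embryo proper, such as Glyma08g11610. Nearly empty gene models thus weigh on these medians. With 4 members these counts and medians describe the members and set nothing apart.

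Reads in at least 1 library were found for 42 of the 57 gene models around the members, beside 58.9% of all 66210 gene models. Of the 10 gene models nearest to CHS7 (5 on each side in identifier order), 9 had reads and 8 had reads in all 3 libraries, with a median of 47.5 reads in the seed coat parenchyma, 19.5 in the suspensor and 72 in the embryo proper. All 10 around CHS8 had reads, with medians of 58, 15 and 62 in the same order. Around Glyma09g08780, by contrast, 3 of 10 had any reads. Around Glyma05g28610, 8 of 10 had reads, with medians of 67 in the seed coat parenchyma, 144 in the suspensor and 113.5 in the embryo proper.

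In the chromosome 8 group, 7 further gene models lie between the first and the last member in identifier order, and 5 of these had reads. Counting 5 more on each side, 12 of 17 had reads. Of these 17, 10 had 100 or more reads in the seed coat parenchyma, beside 16639 of all 66210 gene models. In both embryo regions 2 of the 10 had 0 reads, as Glyma08g11630 did, beside 834 of the 16639 (5.01%). The 2 are Glyma08g11500, ahead of the first member, with 3435 reads in the seed coat parenchyma, and Glyma08g11570, between the members, with 1924. Both were singled out after their values were seen, and the tables give them no function. Glyma08g11640, the gene model directly after Glyma08g11630, was, like those 2, not among the gene models planned to be named. It ran the other way, with 343 reads in the seed coat parenchyma, 997 in the suspensor and 1330 in the embryo proper. Its levels were 23.8, 143 and 115 CPM in that order. None of the 13 gene models with 100 or more reads in the seed coat parenchyma beside the other members was empty in both embryo regions. With counts this small, the neighbours on chromosome 8 are described and not set apart.

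**Figure D3:**
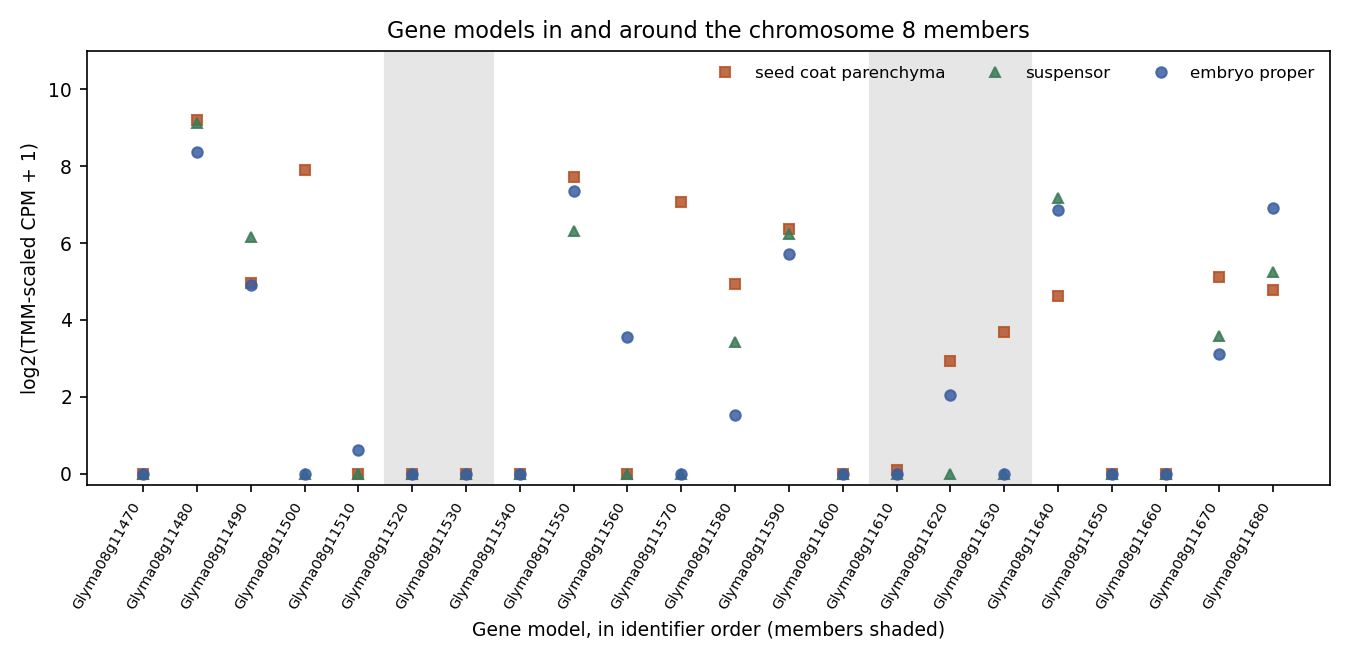
Level as log2(TMM-scaled CPM + 1) (vertical axis) of the 5 chromosome 8 members (shaded) and 17 other gene models in identifier order (horizontal axis) in the 3 libraries. Glyma08g11500, Glyma08g11570 and Glyma08g11630 have reads in the seed coat parenchyma alone, as does Glyma08g11610 with 1 read. The members Glyma08g11520 and Glyma08g11530 have none.

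The pattern of Glyma08g11630 was shared by many other gene models. By Euclidean distance of log2(CPM + 1) over the 3 libraries, 5 gene models outside the list had a distance of 0, that is 172 reads in the seed coat parenchyma and 0 in the suspensor and the embryo proper. Glyma04g02660 and Glyma04g09370 on chromosome 4 are the first of these in identifier order. A distance of 0.5 or less was found for 450 gene models.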

How the data were processed

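The authors deposited 1 table for each library, which per the file headers is a count of mapped reads for each gene model. The counts are whole numbers with unequal totals and were used unchanged. Per the submitters' processing notes the tools included Bowtie. For its version, the genome build, strand and reads with several hits, nothing was given in the sources used here. Per the labels' protocols, 3 to 5 ng of total RNA was amplified before 15 PCR cycles and single-end sequencing of 76 bases.

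The members and the list of neighbours were chosen with earlier results of these data known. Counts were scaled with edgeR 4.0.16 (R 4.3.3) TMM factors of 1.21 (seed coat parenchyma), 0.832 (suspensor) and 0.994 (embryo proper). Intervals of levels are exact Poisson, and those of ratios and shares exact Clopper-Pearson. For ratios against an empty library, the count of 0 was set at 3 reads. Named were all 9 members and the 2 gene models nearest to the member with most reads. Glyma08g11500, Glyma08g11570 and Glyma08g11640 were named in addition, although neighbours were planned to be described by counts and ranges only. Alternatives were upper-quartile scaling, size factors from DESeq2 1.42.0, plain totals, totals less the 50 largest gene models, other constants, minimums and folds. A table of 59048 RefSeq genes (Glycine_max_v4.0) matched 0 of the identifiers, so the other pathway enzymes were not described. Ratios and calls were tried on simulated Poisson counts with plain totals and no amplification spread. Changes were set only in gene models with more reads than any member, so the trial says little about the members. Python 3.11.15, NumPy 2.4.6, pandas 2.3.3, SciPy 1.17.1 and matplotlib 3.10.9 were used.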

Additional observations from a re-analysis of the deposited data

How the results depend on the processing

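No paired analysis was possible because each compartment has 1 library. All alternatives were those listed for the comparisons, and none was added later. Across the 4 other scalings the family sum kept its direction, at 4.13 to 5.40 for seed coat parenchyma over embryo proper, 19.8 to 30.0 for seed coat parenchyma over suspensor and 0.180 to 0.232 for suspensor over embryo proper, all within the counting intervals. Unscaled totals moved the median log2(CPM + 1) difference of the 19940 gene models that reached 5 CPM on average by the most, to 0.20, 0.47 and -0.22 in that order, against -0.05, -0.02 and 0.00 with TMM. Without the member with most reads the family ratio was 1.89 for seed coat parenchyma over embryo proper and 8.77 for seed coat parenchyma over suspensor. The direction was kept, but both values fell below the counting intervals of the full sum, 3.31 to 6.05 and 9.90 to 51.8. The size of the family ratio thus depended on that 1 gene model. All 32 other values of member ratios stayed within their intervals and on the same side of 1. Intervals against an empty library are open at 1 end, and those of Glyma05g28610 include 1, so this is a weak check. The number of members past 4-fold was 0 in each comparison because none reached the minimum. With no minimum it was 1 for seed coat parenchyma over embryo proper, 2 for seed coat parenchyma over suspensor and 1 for suspensor over embryo proper. With totals that leave out the 50 largest gene models it was 1 in each of the first 2, since every CPM then grows and Glyma08g11630 passes the minimum. The suspensor sum rests on 7 reads, which limits every ratio against it.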

Other observations

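The RefSeq table of assembly Glycine_max_v4.0 holds 17 genes with a symbol of the form CHS and a number, of which 16 are protein-coding and 1 is a pseudogene. They lie on 8 chromosomes, with 9 of them on chromosome 8, where the list examined here has 5 gene models. The others include 2 on chromosome 1, CHS7 and CHS11, and 1 each on chromosomes 2, 6 and 19, chromosomes from which the list has no member. The list therefore need not hold the whole family as RefSeq names it. Its symbols could not be tied to identifiers of the count tables, so the reads of the genes outside the list were not analysed here.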
